A study of Homo sapiens with 4 samples.

Results

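The miRNAs of the placental cluster on chromosome 19 and of the neighbouring miR-371 to miR-373 cluster were examined in colon cancer cells with and without an shRNA to Ascl2, a basic helix-loop-helix transcription factor of intestinal stem cells. Members were the capture probes whose array name held at least 1 of miR-371, miR-372, miR-373, miR-498, miR-512, miR-515 to miR-527, miR-1283 or miR-1323, without the star that marks a minor arm. The rule found 49 probes among the 1276 human miRNA probes of the array, which also carried 146 viral miRNA probes. RNA of 4 stable transfectants was hybridized to 1 array each. They were made from HT-29 and LS174T, cell lines grown from adenocarcinomas of the human colon. In each line the cells named shRNA-Ascl2 carried a plasmid with the shRNA, and those named shRNA-Ctr carried the plasmid pGenesil-1.1 with no insert, so the pairs also differ in the presence of any shRNA. The labels name EGFP with the vector of all 4 transfectants, and all 4 were selected with G418. The labels do not tell which of the stable clones was put on an array. The arrays measured no mRNA, so they held no check of the Ascl2 knockdown. No condition had a second array as a replicate, and each SD below, taken over the 4 spots of a probe within an array, is a technical error. Values for 4 arrays are listed as shRNA-Ascl2 then shRNA-Ctr of HT-29, followed by shRNA-Ascl2 then shRNA-Ctr of LS174T.

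The placental cluster is a primate-specific run of miRNA genes, imprinted and expressed from the paternal allele in the placenta, where its miRNAs reach very high levels and are shed in exosomes. The miR-371 to miR-373 genes are active in human embryonic stem cells and in germ cell tumours. Many miRNAs of both clusters carry the letters AAGUGC near the 5′ end, the motif shared with the miR-302 and miR-17 families, which act on regulators of the cell cycle. Both clusters are silent in most adult tissues.

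A miRNA pairs with its targets mainly through the seed, bases 2 to 8, which is shown in capitals. The sequences are RefSeq entries matched by name, and the letters of the capture probes themselves were not used here. Of 60 names on the 49 probes 57 were matched, and 47 probes had at least 1 matched name. The sequences of the brightest members are given first, with a dim close relative where there was one, since the results below turn on probes of similar sequence that differed in signal.
miR-519e (RefSeq 3p arm): aAGUGCCUccuuuuagaguguu
miR-520f (RefSeq 3p arm): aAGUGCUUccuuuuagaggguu
miR-498 (RefSeq 5p arm): uUUCAAGCcagggggcguuuuuc
miR-525-5p: cUCCAGAGggaugcacuuucu
miR-520a-5p: cUCCAGAGggaaguacuuucu
miR-520d-5p: cUACAAAGggaagcccuuuc
miR-518a-5p: cUGCAAAGggaagcccuuuc
miR-518b: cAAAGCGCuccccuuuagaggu
miR-519d (RefSeq 3p arm): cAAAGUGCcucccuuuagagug
miR-519b-5p: cUCUAGAGggaagcgcuuucug
The next lines show the members of the miR-371 to miR-373 cluster, with miR-302a and miR-17 as the related miRNAs outside it.
miR-371-5p (RefSeq miR-371a-5p): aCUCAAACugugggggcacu
miR-371-3p (RefSeq miR-371a-3p): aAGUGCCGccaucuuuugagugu
miR-372 (RefSeq 3p arm): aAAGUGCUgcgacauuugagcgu
miR-373 (RefSeq 3p arm): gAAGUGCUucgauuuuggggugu
miR-302a (RefSeq 3p arm): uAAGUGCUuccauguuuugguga
miR-17 (RefSeq 5p arm): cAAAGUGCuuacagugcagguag

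In the GRCh38.p14 annotation the 46 placental precursors of the named miRNAs lie on the plus strand of chromosome 19 at chr19:53666679-53762430, a stretch of 95.752 kb. MIR371A, MIR372 and MIR373 follow at chr19:53787675-53788773 after a gap of 25.245 kb. The mature miR-519e lies at chr19:53679991-53680012 in the locus MIR519E, miR-498 at chr19:53674230-53674252 in MIR498 and miR-525-5p at chr19:53697547-53697567 in MIR525. The mature miR-520d-5p lies at chr19:53720111-53720130 in MIR520D and miR-518b at chr19:53702787-53702808 in MIR518B. Several mature miRNAs of the cluster are encoded more than once, and 1 probe can read several of them. The probe for miR-518e*, miR-519a*, miR-519b-5p, miR-519c-5p, miR-522* and miR-523*, named the miR-519b-5p/miR-519c-5p probe below, covers 6 names with the same RefSeq sequence.

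The shRNA-Ctr/LS174T array stood apart before any member was considered. The summed intensity of 8 miRNAs of colon epithelium, among them the miR-200 family, was 22138.8 on that array, against 161222 on shRNA-Ascl2/LS174T and 176055 and 207062 on the HT-29 arrays. All 5 blood markers were above 50 on it, with miR-451 of red cells at 334, against 1 of 5 on shRNA-Ascl2/LS174T and 2 of 5 on each HT-29 array. The median of the blood markers was 97.25 on that array, against 29.5 on shRNA-Ascl2/LS174T and 31.75 and 27.25 on the HT-29 arrays. Their sum was 803 on it, above the 333 of shRNA-Ascl2/LS174T and below the 1585.75 and 1094.75 of the HT-29 arrays. The HT-29 sums came mostly from miR-142-3p, at 1436.75 and 965.5 there. This miRNA had its lowest value on shRNA-Ctr/LS174T, 97.25. The spike-in controls of that pair had a median ratio of 8.59 after scaling, against 1.03 in HT-29. These values bear on every comparison below that uses the shRNA-Ctr/LS174T array, and their part in the results was not tested. Empty spots had a mean near 0 on all 4 arrays, and their 95th percentile was 8 to 14. Of 7 negative control probes, 1 exceeded 50 on 3 arrays, and its highest intensity was 65.5.

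Most members gave no signal above background in either line. A probe was taken as above background where the mean of its background-subtracted spots exceeded 50. The study's methods use the same value for another step, the choice of miRNAs for the normalization factor, and state no limit for a signal above background. On this rule 12 of 49 members (24.5%, 95% Wilson interval 14.6 to 38.1) were above background on shRNA-Ascl2/HT-29, where 41.5% of all human miRNA probes were. On shRNA-Ctr/HT-29 there were 14 members (28.6%, interval 17.8 to 42.4), beside 43% of human probes. On shRNA-Ascl2/LS174T there were 9 (18.4%, interval 9.98 to 31.4), beside 41.8%. On shRNA-Ctr/LS174T there were 10 (20.4%, interval 11.5 to 33.6), beside 43%. The intervals cover the counting of probes only and treat related probes as independent. Viral miRNAs, which have no gene in the human genome, were above 50 for 31.5%, 32.2%, 28.1% and 36.3% of probes in the same order of arrays. The members' share was thus below that of the human and of the viral probes on each of the 4 arrays. The median member intensity was 5.5, 13.5, 5 and 10 in that order, against a 95th percentile of the empty spots of 12, 10, 8 and 14, and 21, 6, 15 and 14 members had a mean at or below 0.

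**Figure D1:**
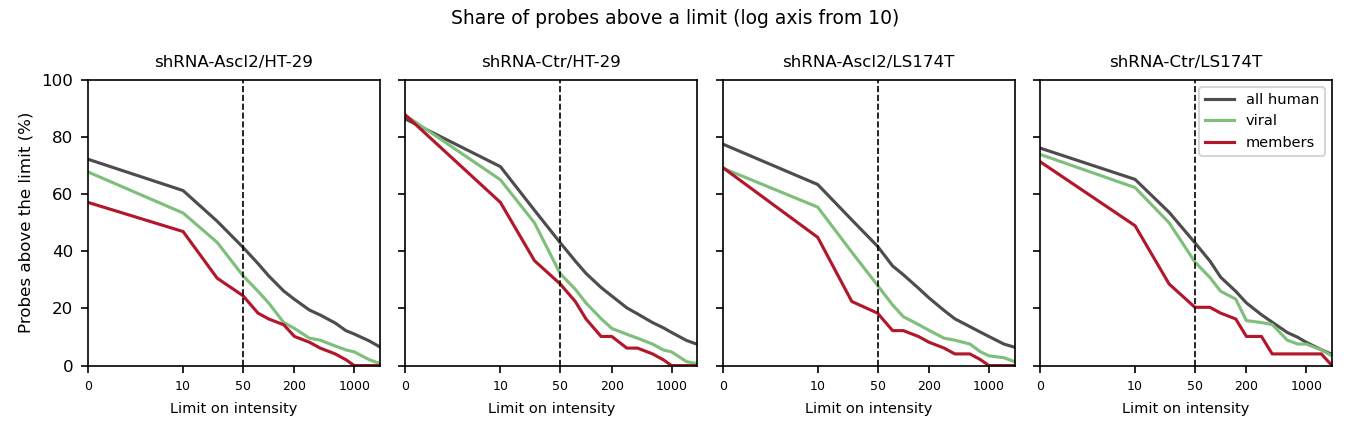
Percentage of probes above a limit on background-subtracted intensity (y axis) against that limit (x axis, linear to 10 and logarithmic above) for the 49 members, all 1276 human miRNA probes and 146 viral probes on each array. At the dashed limit of 50 the members' line lies below both others on all 4 arrays.

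The 49 members fell into 3 classes across the arrays. There were 34 members (69.4%) at or below 50 on all 4 arrays, against 48.7% of human and 59.6% of viral probes. There were 9 members (18.4%) above 50 on all 4, against 34.1% of human and 24.7% of viral probes. The other 6 were above 50 on 1 to 3 arrays. Without the shRNA-Ctr/LS174T array the number above 50 on all remaining arrays was also 9.

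The members that stayed at or below 50 included miRNAs described in trophoblast, while the 9 members above 50 on all 4 arrays belong to the placental cluster too. miR-517a, miR-517b and miR-517c, abundant in trophoblast and its exosomes, ranged from -6 to 31.75 over the arrays. miR-512-3p, another trophoblast miRNA, ranged from -3.5 to 14 and miR-512-5p from -4.5 to 11.25. miR-515-5p was the dimmest member on shRNA-Ctr/HT-29 and shRNA-Ascl2/LS174T, and its 4 values lay between -21.25 and -9. The dimmest on shRNA-Ascl2/HT-29 was miR-518a-3p at -16.25, and on shRNA-Ctr/LS174T it was miR-524-3p at -11.75. The highest value in this class was 38.5, for miR-516a-5p. The rest of the class were miR-524-5p, miR-1283, miR-520g/miR-520h, miR-520g, miR-520e, miR-371-3p, miR-372, miR-373, miR-521, miR-519a, miR-519b-3p, miR-519c-3p, miR-525-3p, miR-522, miR-518f, miR-518c, miR-518d-3p, miR-518e, miR-520f, miR-520a-3p, miR-520b/miR-520c-3p, miR-520c-3p, miR-520d-3p, miR-515-3p and miR-516a-3p/miR-516b*. For these miRNAs the arrays give only an upper limit, and amounts below it were not detectable.

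Of the miR-371 to miR-373 cluster, miR-372 and miR-373 were near background on all arrays. Both have been described as oncogenes of testicular germ cell tumours, and miR-373 as a promoter of migration in breast cancer cells. miR-372 had intensities of 14.75, 16.5, 11 and 14.5 on the 4 arrays. miR-373 had -13, 5.25, -10.75 and -3. Neither exceeded 50 on any array.
miR-371-5p was the only probe of this cluster above 50, with 61.5 ± 19.7 (SD over 4 spots) with shRNA-Ascl2 and 81 ± 16.1 with shRNA-Ctr in HT-29. It had 19.75 ± 7.72 with shRNA-Ascl2 and 34.75 ± 13.9 with shRNA-Ctr in LS174T. Both HT-29 values thus lay above the limit and both LS174T values below it, while miR-371-3p of the same precursor had 3.5, 18.5, 19 and 10.25. The star arm miR-373*, which the rule leaves out, had 135.75, 151.75, 29.75 and 152.

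Clearly expressed was taken as a mean over 200 with every spot over 50 on both arrays of at least 1 line. This was met by 5 members (10.2%), beside 23.3% of human and 11.6% of viral probes. Since the viral probes met it about as often, the term names a level of signal here. The source of that signal was not tested. The 5 were miR-519e, miR-498, miR-525-5p, miR-520d-5p and miR-518b, and they were also the 5 brightest members on each array. All 5 met it in HT-29, and 4 of them in LS174T. The exception was miR-518b, at 186.75 on shRNA-Ascl2/LS174T. Capture probes differ in affinity, so the order of intensities below is not an order of RNA amounts.

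miR-519e had intensities of 791.75 ± 73.6 with shRNA-Ascl2 and 943.5 ± 221 with shRNA-Ctr in HT-29. On LS174T it had 851.75 ± 45.5 with shRNA-Ascl2 and 1504 ± 112 with shRNA-Ctr. The first 3 arrays lay close together and shRNA-Ctr/LS174T was the highest. The star arm of its precursor, miR-519e*, had 404, 345.5, 272 and 656 and was also highest on shRNA-Ctr/LS174T.
miR-498, for which the telomerase gene TERT has been reported as a target, had 990 ± 214.85 with shRNA-Ascl2 and 795.75 ± 199 with shRNA-Ctr in HT-29. It had 757 ± 190 with shRNA-Ascl2 and 1800.75 ± 111 with shRNA-Ctr in LS174T. Again the last array was the highest, and the other 3 overlapped within 1 SD of their spots.
miR-525-5p had 480.75 ± 160, 403.25 ± 20.1, 313.75 ± 66.9 and 369.5 ± 82.8 in the same order of arrays. Its 4 values showed no array apart from the others.
miR-520d-5p had 307.75 ± 88.4, 202.75 ± 36.1, 226.5 ± 10.5 and 388.75 ± 82.1. miR-518b had 274.25 ± 36.1, 202.25 ± 15.3, 186.75 ± 24.5 and 399.25 ± 15.5. Both were highest on shRNA-Ctr/LS174T and next highest on shRNA-Ascl2/HT-29.

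The other 4 members above 50 on all arrays were dimmer. miR-516b ranged from 115.5 on shRNA-Ascl2/LS174T to 198.75 on shRNA-Ctr/LS174T. miR-519d, which carries the seed of the miR-17 family, ranged from 71 to 193.25 on the same arrays. The miR-519b-5p/miR-519c-5p probe ranged from 62.25 on shRNA-Ascl2/LS174T to 164.75 on shRNA-Ascl2/HT-29. miR-523 ranged from 72.25 on shRNA-Ascl2/LS174T to 159.75 on shRNA-Ctr/LS174T. All 4 had their lowest value on shRNA-Ascl2/LS174T.
Of the 6 members above 50 on only some arrays, miR-1323 came nearest to all 4, at 62.5, 82.25, 43.75 and 85.5. miR-371-5p exceeded 50 on both HT-29 arrays. The miR-518d-5p/miR-520c-5p/miR-526a probe (61.75), miR-526b (54) and the miR-518a-5p/miR-527 probe (52.5) did so only on shRNA-Ctr/HT-29, and miR-520a-5p (50.75) only on shRNA-Ascl2/HT-29. The last 3 lay under the highest negative control of their arrays, 55.75. Just below the limit were miR-520a-5p on shRNA-Ctr/HT-29 (46.5) and the miR-518d-5p/miR-520c-5p/miR-526a probe on shRNA-Ctr/LS174T (44.5).

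**Figure D2:**
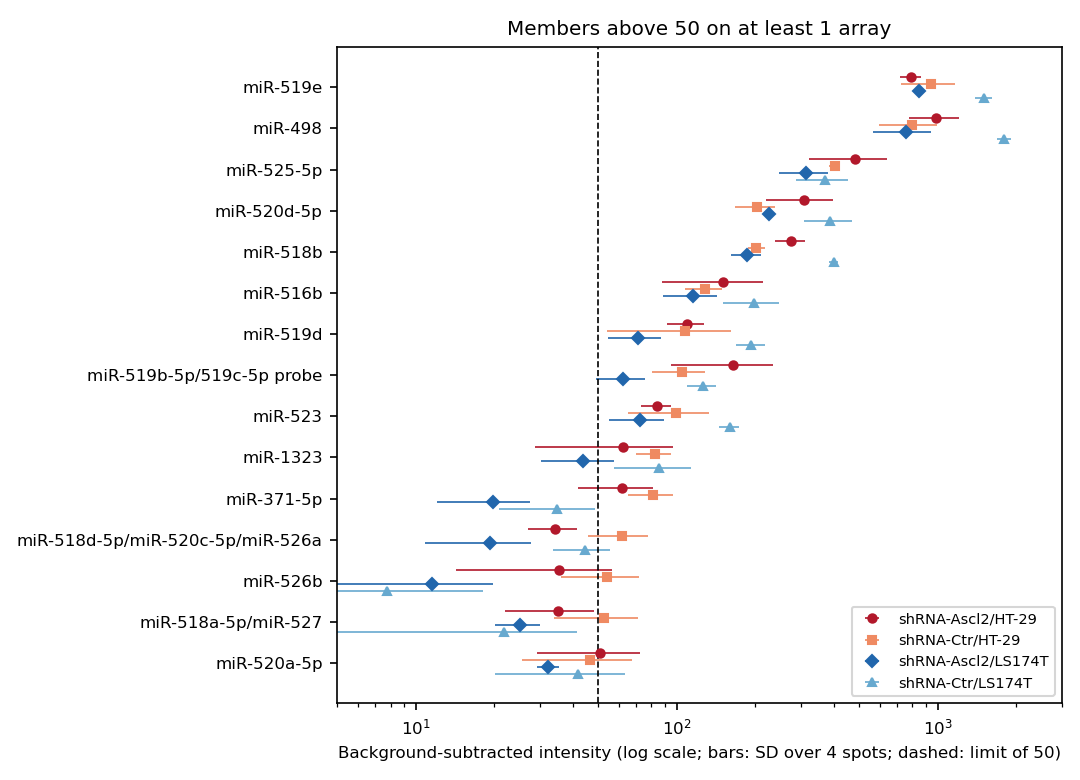
Background-subtracted intensity (x axis, log scale, bars give the SD over 4 spots on 1 array) of the 15 members above 50 on at least 1 of the 4 arrays. The upper 9 lie to the right of the dashed limit on all arrays, and miR-519e and miR-498 reach 1504 and 1800.75 on shRNA-Ctr/LS174T.

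Members with signal were scattered along the placental cluster and had dim neighbours. miR-515-5p, at or below -9 on every array, is encoded on both sides of miR-519e in the cluster. Of the 2 arms of the miR-525 precursor, miR-525-5p was clearly expressed while miR-525-3p lay between -5.5 and 10.5. Likewise miR-520d-5p was clearly expressed and miR-520d-3p lay between -9.5 and -0.25. These are descriptions of probes and not comparisons of RNA amounts between arms.

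**Figure D3:**
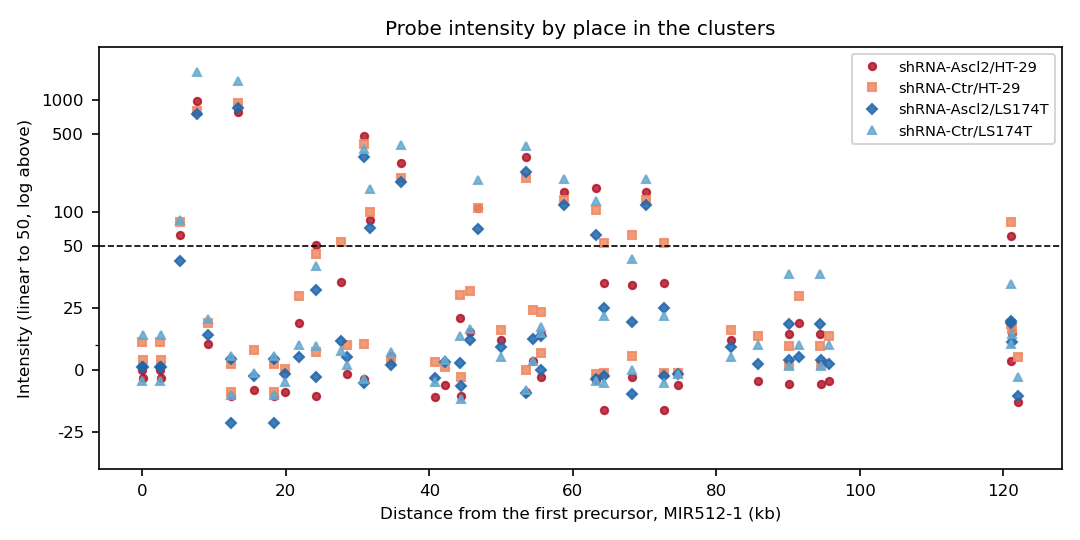
Background-subtracted intensity (y axis, linear to 50 and logarithmic above) of the members with a RefSeq position against distance from the first precursor, MIR512-1, in kb. A miRNA encoded more than once is drawn at each of its loci, and probes above the dashed limit of 50 stand among probes near 0, with miR-498 and miR-519e reaching 1800.75 and 1504.

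The split between bright and dim members followed the arm in part. Of 14 probes for 5p arms, 5 were above 50 on all 4 arrays, 4 on none and 5 in between. Of 29 probes for 3p arms, 3 were above 50 on all 4 arrays and 26 on none. The remaining 4 matched probes carry names without an arm, with 1 above on all arrays, 2 on none and 1 in between. The letters AAGUGC stood within the first 9 bases of 17 members, of which 15 were above 50 on no array. The exceptions were miR-519e and miR-519d. The seed AAGUGCU, shared with miR-302a to miR-302e, was carried by 7 member probes, miR-372, miR-373, miR-520e, miR-520a-3p, miR-520b/miR-520c-3p, miR-520c-3p and miR-520d-3p. All 7 lay between -13 and 20.5 on every array.
The run GGG was searched in the mature strand as a plain feature of composition and occurs in 33.2% of the 2370 mature names of the RefSeq table. It was present in 20 member probes, of which 5 were above 50 on all arrays, 6 on some and 9 on none. Of the 27 probes without it 4 were above on all arrays and 23 on none. The 5p arms held GGG in 11 of 14 probes, so arm and composition overlap here, and their part in the signal was not tested.

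Probes for nearly the same sequence differed in signal. The RefSeq sequence of miR-519e differs from that of miR-520f by an edit distance of 2, and miR-520f lay between -8.25 and 8. miR-515-3p, with the same seed AGUGCCU as miR-519e, lay between 2.25 and 5.75. miR-518b differs from miR-518c by an edit distance of 3 and shares its seed AAAGCGC, and miR-518c lay between -6 and 3.75.
In the 5p arms the closest neighbours of miR-525-5p and miR-520d-5p were nearer in signal to the limit. miR-525-5p and miR-520a-5p are an edit distance of 2 apart, and miR-520a-5p had 50.75, 46.5, 32.25 and 41.75. miR-520d-5p and miR-518a-5p are 1 apart, and the miR-518a-5p/miR-527 probe had 35, 52.5, 25 and 21.75. Other 5p relatives were dimmer. miR-524-5p, with the seed of miR-520d-5p at an edit distance of 3, lay between 2.75 and 30. miR-516a-5p, 4 apart from miR-516b, lay between 9.5 and 38.5. Signals of the dim members were not added to those of their relatives in any count.

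The related families outside chromosome 19 were set beside the members. All their probes carry the same motif except miR-302f and miR-367. All 6 probes of the miR-17 seed family, known for promoting proliferation in many cancers, were above 50 on every array. Their intensities ranged from 840 to 15412. The cluster of miR-302a to miR-302d and miR-367 on chromosome 4 marks embryonic stem cells, while miR-302e and miR-302f are encoded on other chromosomes. Of these 7 probes 2 were above 50 on 3 arrays and 3 on shRNA-Ctr/LS174T, where miR-302f had 60.75. miR-302a had 1009.5, 745.5, 559.75 and 1674.25 and miR-302e had 612.5, 641, 549.75 and 1046. In contrast, miR-302b, miR-302c and miR-302d stayed between -20.5 and 15.25, and miR-367 between -2.5 and 7.25. Of the 5 listed probes of the cluster on chromosome 4, none of them a star arm, miR-302a was thus the only one above 50 on any array. The star arm miR-302c*, which was not in the list, was above 50 on all 4 arrays.

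**Figure D4:**
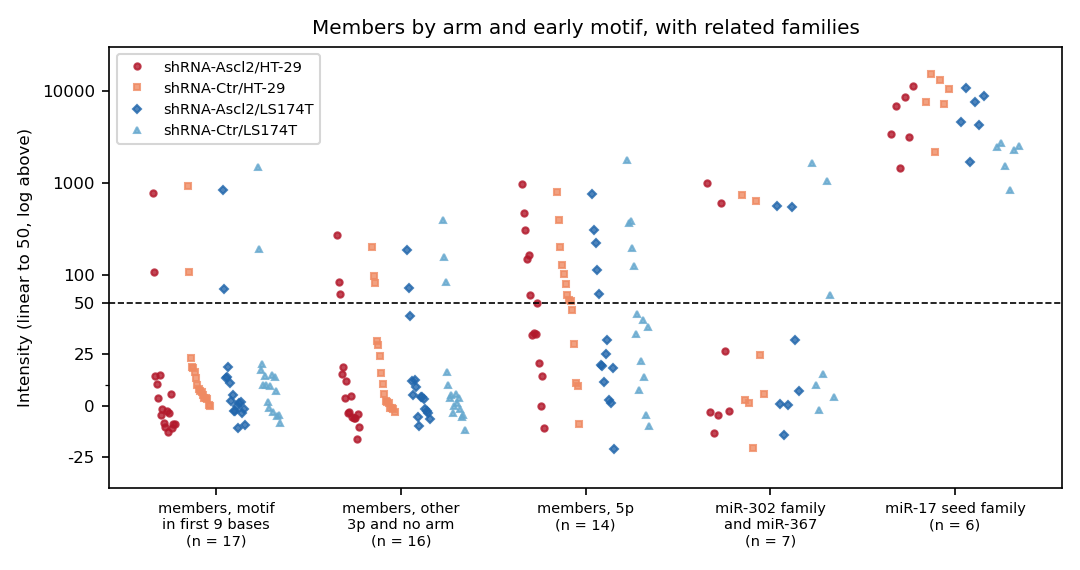
Background-subtracted intensity (y axis, linear to 50 and logarithmic above) on the 4 arrays, with 1 point per probe and array, for members with the AAGUGC motif in the first 9 bases, other members of 3p or unnamed arm, members of 5p arms, and the probes of miR-302, miR-367 and the miR-17 family. Of the 17 motif members, 15 lie below the dashed limit of 50 on every array, and the 6 miR-17 family probes lie at 840 or more.

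The effect of the shRNA was read as the ratio of the shRNA-Ascl2 array to the shRNA-Ctr array of a line. Intensities were first divided by the array's median, taken over miRNA probes that exceeded 50 in both members of the pair. A member was called at a ratio of at least 2 or at most 0.5 where the brighter array exceeded 50. In HT-29 no member of the 15 tested was called in either direction. The background there was 4.17% of 576 human probes called higher and 8.51% called lower. The 11 members above 50 on both arrays had ratios from 0.831 to 1.72, with a median of 1.29 against 1.02 over the 502 human probes above 50 on both. The highest ratios were 1.72 for the miR-519b-5p/miR-519c-5p probe, 1.66 for miR-520d-5p and 1.48 for miR-518b. The lowest were 0.831 for miR-1323 and for miR-371-5p. miR-519e had a ratio of 0.918 and miR-498 one of 1.36.

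In LS174T 6 of 10 tested members were called lower with shRNA-Ascl2 and none higher, beside 25.4% of 614 human probes called lower and 28.8% called higher. The ratios were 0.357 for miR-519d, 0.408 for miR-498, 0.439 for miR-523, 0.454 for miR-518b and 0.481 for the miR-519b-5p/miR-519c-5p probe. For miR-1323, which was below 50 on the shRNA-Ascl2 array, the measured ratio was 0.497 and the bound from the limit gave a ratio of at most 0.576, so a 2-fold difference is not shown for it. The members not called were miR-519e at 0.55, miR-516b at 0.565, miR-520d-5p at 0.566 and miR-525-5p at 0.825. All 9 members above 50 on both arrays had ratios below 1, with a median of 0.481 against 0.853 over 468 human probes.
The viral probes of the same pair moved in the same direction, with 29 of 55 (52.7%) called lower, 2 called higher and a median ratio of 0.497. In the same pair 43 of 48 spike-in controls were called higher, and the epithelial and blood markers differed as given above. The members' share of 60% called lower was thus close to that of the viral probes. With normexp in place of plain subtraction 1 member was called lower, beside 9.61% of human probes. With scaling by the spike-in controls all 10 members were, beside 82.9% of human probes. A difference between these 2 arrays and an effect of the shRNA cannot be told apart with 1 array each.

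**Figure D5:**
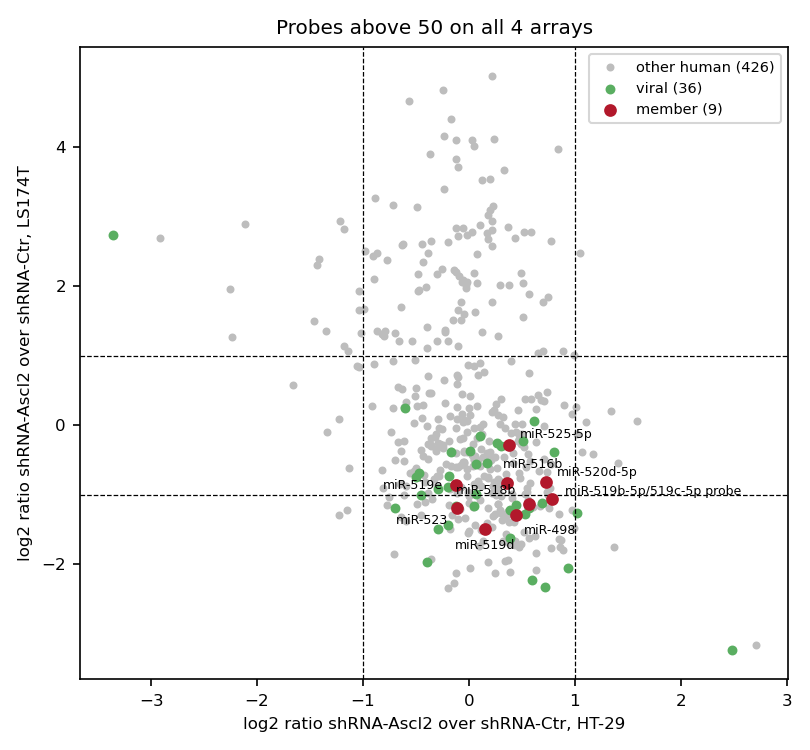
log2 ratio of shRNA-Ascl2 over shRNA-Ctr in HT-29 (x axis) against LS174T (y axis) for the miRNA probes above 50 on all 4 arrays, with 9 members, 36 viral and 426 other human probes. Dashed lines mark 2-fold, the 9 members lie between them on the x axis and below 0 on the y axis, where most viral probes lie too.

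The lines were compared in a limma model with cell line and vector as terms, in which the vectors stand in for replicates of a line and 1 residual degree of freedom was left per probe. Of 654 human probes above 50 on at least 1 array 0 were called different between the lines at an adjusted p under 0.05, and 34 had an unadjusted p under 0.05. Of the 15 members tested 0 were called and 0 had an unadjusted p under 0.05, and their lowest adjusted p from limma was 0.828. For miR-520a-5p, miR-526b and the miR-518a-5p/miR-527 probe the scaled values were raised to 50 on every array. No difference could show for these members in either term of the model. For miR-519e the log2 difference of HT-29 minus LS174T was -0.60 (95% interval -2.05 to 0.84), so the interval holds large differences in both directions. The model uses the shRNA-Ctr/LS174T array, and without it no residual degree of freedom is left. For the shRNA in both lines together 0 of 654 probes and 0 of 15 members were called, 0 had an unadjusted p under 0.05, and the lowest adjusted p of a member from limma was 0.971.

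Since the shRNA-Ctr/LS174T array stood apart, the lines were also set side by side within each vector. Among the shRNA-Ascl2 arrays the measured ratio was at least 2 for 2 of 12 tested members and at most 0.5 for 0, beside 11.4% of 595 human probes higher in HT-29 and 16.5% lower. Only the miR-519b-5p/miR-519c-5p probe, at 2.47, was above 50 in both lines. The other was miR-371-5p, which was below 50 in LS174T and was at least 1.19-fold higher in HT-29, so a 2-fold difference is not shown for it. The 5 clearly expressed members had ratios from 0.868 for miR-519e to 1.43 for miR-525-5p in this comparison. Among the shRNA-Ctr arrays, which include the array that stood apart, 4 of 14 members were lower in HT-29, beside 29.1% of 623 human probes lower and 30.8% higher. Of the viral probes 26 of 58 (44.8%) were lower and 3 higher. The 4 lower members were miR-498 (0.388), miR-518b (0.444), miR-520d-5p (0.457) and miR-519d (0.489). No member was shown to be 2-fold higher in HT-29 there. The 3 members with a measured ratio over 2 were below 50 in LS174T, and the limit gave at least 1.52-fold for miR-371-5p, at least 1.01-fold for miR-526b and no fold for the miR-518a-5p/miR-527 probe.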

How the data were processed

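Total RNA of 4 stable transfectants, labelled with Hy3, was hybridized to Exiqon arrays of the 6th generation, and the authors read 12312 spots per array with GenePix Pro 6.0. The deposited intensity columns hold foreground and background-subtracted signals on a linear scale. A second table deposited by the authors holds a ratio, the median background-subtracted spot over 1 factor per array, and was used as an alternative. Their 4 lists of 2-fold changes, which hold fold changes and 24 columns of values per sample, were not used.

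The 4 spots of a probe were averaged, and the number of arrays limits the precision. Bounds divide the limit of 50 by the mean of the 2 scaling factors. Factors were 275.25 and 301.125 in HT-29 (shRNA-Ascl2, shRNA-Ctr) and 300 and 291.5 in LS174T. limma used log2 of scaled values with those below 50 raised to 50, and Benjamini-Hochberg adjustment over 654 human probes. Calling and limma were tested on simulated data. The members and lists were chosen with earlier results of these data known. Named members were those above 50 on all 4 arrays, the 5 brightest and the dimmest per array, those clearly expressed or called, and all miR-371, miR-372 and miR-373 probes, while others were named after their values were seen. Alternatives changed the limit, spots, scaling, background, fold and members counted. The comparison of lines within a vector was added after seeing the data. Python 3.11.15, R 4.3.3 and limma 3.58.1 were used.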

Additional observations from a re-analysis of the deposited data

Results flagged for a closer look

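In 4 of the 9 members above 50 on all arrays the ratio of shRNA-Ascl2 to shRNA-Ctr was above 1 in HT-29 and at or below 0.5 in LS174T. The pattern was not particular to the members. The human probe miR-638 (log2 ratios 0.25 and -2.12) and the viral hsv1-miR-H14-3p (2.49 and -3.24) showed it too. The share of all human probes with it was not counted, so the count of members has no background and is not a result about the cluster. The miR-519b-5p/miR-519c-5p probe had 1.72 in HT-29 and 0.481 in LS174T. miR-498 had 1.36 and 0.408, miR-519d had 1.11 and 0.357, and miR-518b had 1.48 and 0.454. For miR-519d the direction in HT-29 turned, with 0.746 from the spots in blocks 1 to 18, 1.86 from those in blocks 19 to 36 and 0.995 with spike-in scaling. For the miR-519b-5p/miR-519c-5p probe the same block ranges gave 2.36 and 1.11 in HT-29, and for miR-498 they gave 1.73 and 1.03. The difference between the lines was not tested, since 1 array per condition leaves no residual degree of freedom for it. All 4 ratios in LS174T rest on the shRNA-Ctr/LS174T array, on which the epithelial markers summed to 22138.8 and the viral probes had a median ratio of 0.497.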

How the results depend on the processing

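No paired analysis was possible because of single arrays per group, which share no further replicate numbers, and the limma model took the cell line as its block instead. With a limit of 200 the share of members above background was 10.2%, 10.2%, 8.16% and 10.2% in the order of arrays used above. Human probes had 23.2%, 24.4%, 23.7% and 21.9% at that limit, and viral probes 13.0%, 13.0%, 12.3% and 15.8%. With a limit of 100 the members' share was 16.3% on shRNA-Ctr/HT-29, beside 32.3% of human probes. Leaving out the probes with a star name, an alternative chosen after seeing the data, gave 17% to 27.7%, beside 41.5% to 43% of all human probes. With a mean over 400 in place of 200, 3 members were clearly expressed, and the human probes that met the whole rule were not counted. Counted per array, 17.7%, 18.1%, 16.4% and 15.2% of human probes had a mean over 400. The members had 6.12%, 6.12%, 4.08% and 4.08% there. In HT-29 a fold of 1.5 called 2 of 15 members higher and 1 lower, beside 14.2% and 18.4% of human probes. Blocks 1 to 18 alone called 1 of 12 higher there (human probes 8.48%), the miR-519b-5p/miR-519c-5p probe at 2.36, and blocks 19 to 36 alone called 1 of 14 lower (17.2%), miR-526b at 0.386, which had 1.15 in blocks 1 to 18. In LS174T the count called lower was 10 of 10 with spike-in scaling (human probes 82.9%), 1 with normexp (9.61%), 2 of 5 tested with a limit of 200 (20.5%) and 0 at a fold of 3 (10.1%). Between the lines, blocks 19 to 36 alone left 1 member 2-fold apart on the shRNA-Ascl2 arrays. Human probes were not counted in that setting, so this count has no background. Spots of a probe lie in both block ranges, and the cause of these shifts was not tested. Of the single ratios in HT-29, 167 kept their side of the threshold and 5 passed it. In LS174T 96 kept it, 10 passed it and 18 no longer did. The counts that kept it include outcomes fixed in advance. A changed limit left the ratio of a tested member as it was, and in HT-29 a fold of 3 could add no call. None of the 6 ratios called in LS174T crossed 1 under these alternatives. In HT-29, where none was called, miR-519d, miR-519e, miR-520a-5p and miR-523 crossed it under at least 1, miR-519d at 0.746 and the others at 0.983 to 1.01. miR-526b crossed it too, at 1.15 in blocks 1 to 18, where it did not pass the limit for a tested probe. limma called 0 members under each setting run, and also 0 of all human probes tested in each, so this is not particular to the members.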
